A study of Mus with 4 samples.

Results

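Nuclear transfer RNA (tRNA) genes were examined in RNA from the cochlea of mice with the nonsense change Otof c.1315 C>T (p.R439X). They were taken as every row of the deposited expression table whose symbol begins with n-T, which gave 218 genes of the 21230 listed. The letter that follows in the symbol names the amino acid carried and the next 3 letters name the anticodon, so that n-TRtct1 is an arginine tRNA gene with the anticodon TCT. The 218 genes covered 21 amino acid letters, selenocysteine included, and 46 anticodons. Of the 403 such symbols in the RefSeq annotation of GRCm38.p6, 187 were not in the table and are not analysed here, and 2 listed genes, n-TLtaa1 and n-TUtca2, had no match in that annotation. The gene lengths behind the values ran between 71 and 106 bases.

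The RESTARTv3 group comprised 2 libraries of cochleae treated with RESTART v3, which the study delivered into the inner ear with the AAVie viral vector. The untreated group comprised 2 libraries of cochleae without treatment, and all 4 libraries came from mice with the Otof change. RESTART v3 consists of a guide small nucleolar RNA, an isoform of the pseudouridine synthase DKC1 and a U6-driven natural arginine tRNA, tRNA-R-TCT-1-1, meant to read the edited stop codon. The labels give neither age nor sex, and no vector-injected control was among these libraries, so that effects of RESTART v3, of its vector and of the injection cannot be told apart. The header gave both untreated columns the same name, and they are called libraries A and B, letters with no order.

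Nuclear tRNA genes are transcribed by RNA polymerase III from promoter elements inside the gene. The transcripts are trimmed at both ends, given a CCA tail, modified at many bases, exported and charged with their amino acid by aminoacyl-tRNA synthetases. Many tRNAs are encoded by several near-identical copies, and reads of such copies cannot always be assigned to a single gene. Modified bases and the tight fold of mature tRNA also hinder reverse transcription, so a standard RNA-seq library holds few tRNA reads, which may come from precursors as well as from mature tRNA. How reads that matched several copies were counted is not given in the sources used here, and reads of the delivered tRNA and of endogenous arginine TCT genes cannot be told apart in these values.

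The level of tRNA genes separated libraries of the same group more than it separated the groups. Reads in the 218 genes numbered 38521 and 116547 in RESTARTv3 replicates 1 and 2, against 92700 and 38956 in the untreated A and B. As a share of all reads of the library, this was 0.0541% (95% Wilson interval 0.0536% to 0.0547%) in RESTARTv3 replicate 1 and 0.191% (0.190% to 0.192%) in RESTARTv3 replicate 2. It was 0.234% (0.232% to 0.235%) in untreated library A and 0.0687% (0.0680% to 0.0693%) in untreated library B. The intervals cover counting error only. RESTARTv3 replicate 2 and untreated library A were thus high and the other pair low, and the groups overlapped. Summed over the 218 genes, the level was 6946 and 24672 RPKM (reads scaled to gene length and library total) in RESTARTv3 libraries, against 29925 and 8770.2 RPKM in untreated libraries. The log2 ratio of the group means was -0.29, and it was 0.85 without untreated library A and -1.48 without RESTARTv3 replicate 2.

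**Figure D1:**
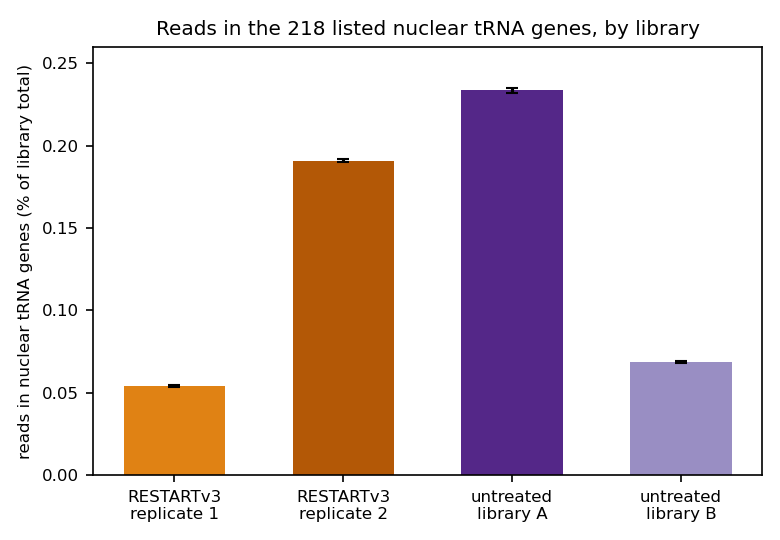
Bars give the reads in the 218 listed nuclear tRNA genes as a percentage of the library total, for the 2 RESTARTv3 and the 2 untreated libraries, and whiskers are 95% Wilson intervals of the counts. RESTARTv3 replicate 2 (0.191%) and untreated library A (0.234%) stood above RESTARTv3 replicate 1 (0.0541%) and untreated library B (0.0687%).

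Depth also differed between the libraries. Library totals, inferred from the RPKM values, were 71144247 and 61040077 reads in RESTARTv3 replicates 1 and 2, and 39650172 and 56739609 reads in untreated A and B. Listed genes took 59.9% and 29.6% of the reads in the RESTARTv3 libraries, and 54.4% and 62.6% in the untreated libraries. Of 49 marker genes for cochlear and neighbouring cell types, 42 were listed, among them all 7 hair cell markers, with at least 34 reads in any library. In all 12 marker lists the summed RPKM was lower in RESTARTv3 replicate 2 than in replicate 1, the opposite order to the tRNA genes. Of all tested genes, only 13.7% were higher in replicate 2 on the deposited scale. Between untreated libraries A and B the marker sums differed in both directions. Bone markers had 684 and 192 RPKM, and erythroid markers 80.4 and 324 RPKM. The part of cell composition, RNA quality or library preparation in the tRNA levels was not tested. In bulk tissue, fewer cells of a type and less RNA per cell cannot be told apart.

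Levels of single tRNA genes spanned a wide range, with means over the 4 libraries between 0.467 and 1678 RPKM and a median of 16.4 RPKM. A mean above 100 RPKM was found for 34 genes and a mean below 5 RPKM for 58 genes. The 5 most read genes of each library took 35.1% and 37.2% of the tRNA reads in RESTARTv3 libraries, and 42.0% and 34.8% in untreated libraries.

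The highest gene was n-TUtca2, the selenocysteine tRNA, whose UCA anticodon pairs with UGA codons that are recoded in selenoprotein messages. It had 633 and 2329 RPKM in RESTARTv3 libraries, against 3013 and 737 RPKM in untreated libraries. The groups overlapped, and the log2 change was -0.30 (95% interval -2.05 to 1.46). UGA is also the stop codon that the Otof change creates. Next came n-TRcct1, an arginine tRNA, with 516 and 2134 RPKM in RESTARTv3 libraries, against 2608 and 551 RPKM in untreated libraries. The aspartate tRNA gene n-TDgtc16 had 476 and 1582 RPKM in RESTARTv3 libraries, against 3047 and 626 RPKM in untreated libraries. The means of these 3 genes were 1678, 1452 and 1433 RPKM, apart by less than the spread between libraries of either group. The leucine genes n-TLtag1 and n-TLcaa1, the serine gene n-TSgct6, the alanine gene n-TAtgc10, the arginine gene n-TRccg1, the methionine gene n-TMcat11 and the glutamine gene n-TQttg6 followed, with means of 1023, 841, 725, 710, 678, 480 and 422 RPKM. In 9 of these 10 genes untreated library A was the highest library. The exception was n-TAtgc10, with 294 and 1454 RPKM in RESTARTv3 libraries, against 739 and 354 RPKM in untreated libraries.

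**Figure D2:**
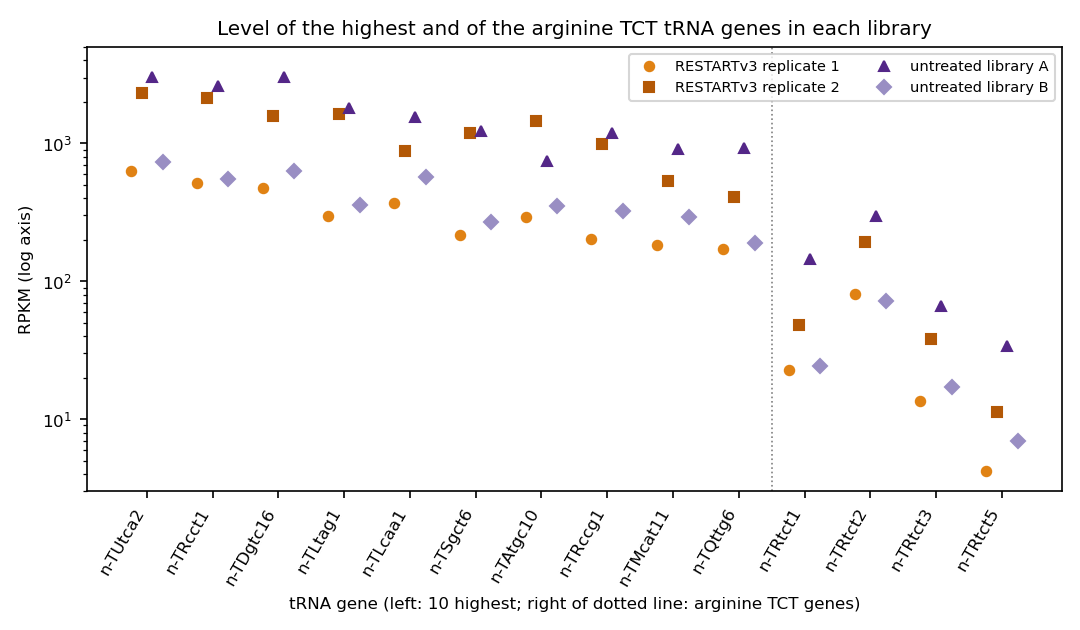
Points give the RPKM in each of the 4 libraries (log axis) of the 10 tRNA genes with the highest mean and, right of the dotted line, of the 4 listed arginine TCT genes. In each gene RESTARTv3 replicate 2 and untreated library A lay above RESTARTv3 replicate 1 and untreated library B, and no gene separated the groups.

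The arginine TCT genes share their anticodon with the tRNA that RESTART v3 delivers, and 4 of the 5 annotated genes were listed. Gene n-TRtct2 was the highest of them, with 80.5 and 194 RPKM in RESTARTv3 libraries, against 297 and 72.2 RPKM in untreated libraries. These values rest on 487 and 1006 reads in RESTARTv3 libraries, and on 1001 and 348 reads in untreated libraries. Each group had a high and a low library, and the log2 change was -0.23 (SE 0.94, 95% interval -2.08 to 1.62). Gene n-TRtct1 had 22.9 and 47.8 RPKM in RESTARTv3 libraries, against 145 and 24.2 RPKM in untreated libraries. Its log2 change was -0.83 (95% interval -2.66 to 0.99). Gene n-TRtct3 had 13.6 and 38.1 RPKM in RESTARTv3 libraries, against 66.3 and 17.2 RPKM in untreated libraries. Here too the groups overlapped, with a log2 change of -0.56 (95% interval -2.36 to 1.23). Gene n-TRtct5, which lies within the span of Aim2, a sensor of cytosolic DNA, had 4.18 and 11.3 RPKM in RESTARTv3 libraries, against 34.1 and 6.91 RPKM in untreated libraries. Its log2 change was -1.11 (95% interval -2.81 to 0.59). In limma, none of the 4 changes passed the test (adjusted p = 0.998 for each), and a difference of either direction within these intervals was not detectable. For n-TRtct2 the sign of the change turned when libraries were scaled by their median gene (0.06), and without untreated library A all 4 signs turned (0.45 in n-TRtct1, 0.79 in n-TRtct2, 0.40 in n-TRtct3 and 0.0040 in n-TRtct5).

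Summed over the 4 genes, arginine TCT tRNA had 121 and 291 RPKM in RESTARTv3 libraries (206 ± 120, SD, n = 2), against 542 and 120 RPKM in untreated libraries (331 ± 298, SD, n = 2). RESTARTv3 replicate 1 and untreated library B had nearly the same sum. The log2 ratio of the group means was -0.68, and without untreated library A it was 0.77. As a share of the tRNA reads of the library, the TCT genes took 1.90% and 1.29% in RESTARTv3 libraries, against 1.96% and 1.49% in untreated libraries, and these shares overlapped as well. With 2 libraries a group, the smallest p of an exact permutation test is 0.333, and none was run on these sums.

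The other arginine tRNAs read the remaining arginine codons. The 18 listed arginine genes have 5 anticodons, of which TCG, and ACG once its first base is deaminated to inosine, can pair with CGA, the codon that the Otof change turns into a stop. The 4 CCT genes summed to 574 and 2342 RPKM in RESTARTv3 libraries, against 2930 and 641 RPKM in untreated libraries. The 2 CCG genes summed to 283 and 1518 RPKM in RESTARTv3 libraries, against 1452 and 416 RPKM in untreated libraries. The 6 ACG genes were lower, with 147 and 302 RPKM in RESTARTv3 libraries, against 498 and 242 RPKM in untreated libraries. The 2 TCG genes were lowest, with 55.8 and 164 RPKM in RESTARTv3 libraries, against 252 and 76.5 RPKM in untreated libraries. In all libraries but untreated library A the CCT sum was the highest, then that of CCG, that of ACG, that of TCT and last that of TCG. In untreated library A the TCT sum lay above that of ACG. The groups overlapped for each of the 5 anticodons.

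Differences between the groups were tested gene by gene with limma on log2(RPKM + 0.5), in a fit across the 5076 genes that averaged 1 RPKM or more, with Benjamini-Hochberg adjustment at 0.05. Of the 218 tRNA genes, 212 were tested and 6 lay below the minimum, with 1 to 8 reads in any library. None of the 212 was called (lowest adjusted p = 0.998), as was none of all tested genes (0.0%). A linear fit of recovered read counts (limma voom) called none either. At an unadjusted p under 0.05 there were 5 tRNA genes (2.36%) in the main test, against 1.42% of all tested genes, with 1 higher (all tested genes 0.118%) and 4 lower (1.3%). With voom there was 1 such tRNA gene, against 2.58% of its tested genes. The log2 change was positive in 49 genes (23.1%, all tested genes 23.9%) and negative in 163, with a median of -0.40, and the median over all tested genes was -0.41. After scaling by median-of-ratios factors the median over all tested genes was -0.20 and that of the tRNA genes -0.12, with 88 positive changes, and after quantile normalization 126 of the 212 were positive. The median SE of a tRNA gene was 0.89 on the log2 scale.

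The groups overlapped in 179 of the 212 tested tRNA genes. The RESTARTv3 libraries were both higher than either untreated library in 3 genes (1.42%), against 0.768% of all tested genes, and both lower in 30 genes (14.2%), against 34.9%. After median-of-ratios scaling, 2 tRNA genes lay above (all tested genes 8.27%) and 5 below (28.0%).

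The gene with the largest positive change was n-TAtgc2, an alanine tRNA. It had 2.34 and 7.96 RPKM in RESTARTv3 libraries, against 1.40 and 0.490 RPKM in untreated libraries. These are 12 and 35 reads in RESTARTv3 libraries, and 4 and 2 reads in untreated libraries. Its log2 change was 1.84 (95% interval 0.38 to 3.30), with an unadjusted p of 0.0137 and an adjusted p of 0.998 in limma. Without RESTARTv3 replicate 2 the change was 1.05. The other 2 genes that lay above, the phenylalanine gene n-TFgaa3 (6.35 and 7.63 RPKM in RESTARTv3 libraries, against 6.22 and 4.83 RPKM in untreated libraries) and the proline gene n-TPagg2 (2.15 and 2.05 RPKM in RESTARTv3 libraries, against 1.40 and 0.734 RPKM in untreated libraries), had log2 changes of 0.32 and 0.76.

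Among the genes that lay below, the leucine gene n-TLcag5 had the largest negative change. It had 41.8 and 9.67 RPKM in RESTARTv3 libraries, against 91.5 and 76.9 RPKM in untreated libraries, which are 247 and 49 reads against 301 and 362 reads. RESTARTv3 replicate 2 was its lowest library, unlike in most tRNA genes. Its log2 change was -2.02 (95% interval -3.84 to -0.20), with an unadjusted p of 0.0294 and an adjusted p of 0.998 in limma. Without RESTARTv3 replicate 2 the change was -0.99. Glutamine genes supplied 3 of the 6 largest negative changes, which were picked by size, so this count is no test. In all, 4 of 12 listed glutamine genes and 2 of 5 listed cysteine genes lay below. This was not particular to them, since 5 of 7 histidine, 7 of 19 serine and 4 of 14 proline genes did too. Over all amino acids, the share that lay below was 14.2% of tested tRNA genes, against 34.9% of all tested genes. Gene n-TQctg5 had 2.93 and 1.82 RPKM in RESTARTv3 libraries, against 20.7 and 4.65 RPKM in untreated libraries, a log2 change of -1.89. Gene n-TQttg5 had 0.586 and 1.59 RPKM in RESTARTv3 libraries, against 5.61 and 2.45 RPKM in untreated libraries, a log2 change of -1.49. Gene n-TQctg3 had 0.781 and 0.910 RPKM in RESTARTv3 libraries, against 5.61 and 1.71 RPKM in untreated libraries, a log2 change of -1.45. In the RESTARTv3 libraries the values of n-TQttg5 and n-TQctg3 rest on few reads. Cysteine genes supplied the remaining 2. Gene n-TCgca56 had 7.42 and 10.2 RPKM in RESTARTv3 libraries, against 56.7 and 15.4 RPKM in untreated libraries. Gene n-TCgca57 had 4.69 and 4.55 RPKM in RESTARTv3 libraries, against 20.3 and 9.06 RPKM in untreated libraries. Their log2 changes were -1.71 and -1.46. In each of these 5 glutamine and cysteine genes untreated library A was the highest library, and without it the changes of n-TQctg5, n-TQttg5 and n-TQctg3 were -0.87, -0.97 and -0.72.

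Within groups, the tRNA genes moved together. RESTARTv3 replicate 2 and untreated library A both lay above RESTARTv3 replicate 1 and untreated library B in 168 of the 212 tested tRNA genes (79.2%), against 7.8% of all tested genes. RESTARTv3 replicate 2 exceeded replicate 1 in 194 of the 212 tested tRNA genes (91.5%), against 13.7% of all tested genes. Untreated library A exceeded library B in 201 (94.8%), against 52.4%. Over all listed tRNA genes the median log2 ratio of RESTARTv3 replicate 2 over replicate 1 was 1.52, and over all listed genes it was -1.07. The same ratio of untreated library A over B was 1.44 for tRNA genes and -0.48 for all listed genes. These ratios describe single libraries and carry no replicate check. They are on the deposited scale, on which whole libraries were shifted. The median-of-ratios factors were 1.30 and 0.636 in RESTARTv3 replicates 1 and 2, and 0.931 and 1.32 in untreated libraries A and B. The values of all genes include this shift, and no background after scaling was computed for these ratios. Since genes whose reads differed by more than 8-fold between libraries of a group are not in the table, larger ratios would not be seen. The highest read ratio of RESTARTv3 replicate 2 over replicate 1 in a listed tRNA gene, that of n-TGgcc8, was 7.79, and 13 tRNA genes had such a ratio of at least 6. Between untreated libraries A and B the highest read ratio was 8, in n-TMcat4, on 8 and 1 reads.

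**Figure D3:**
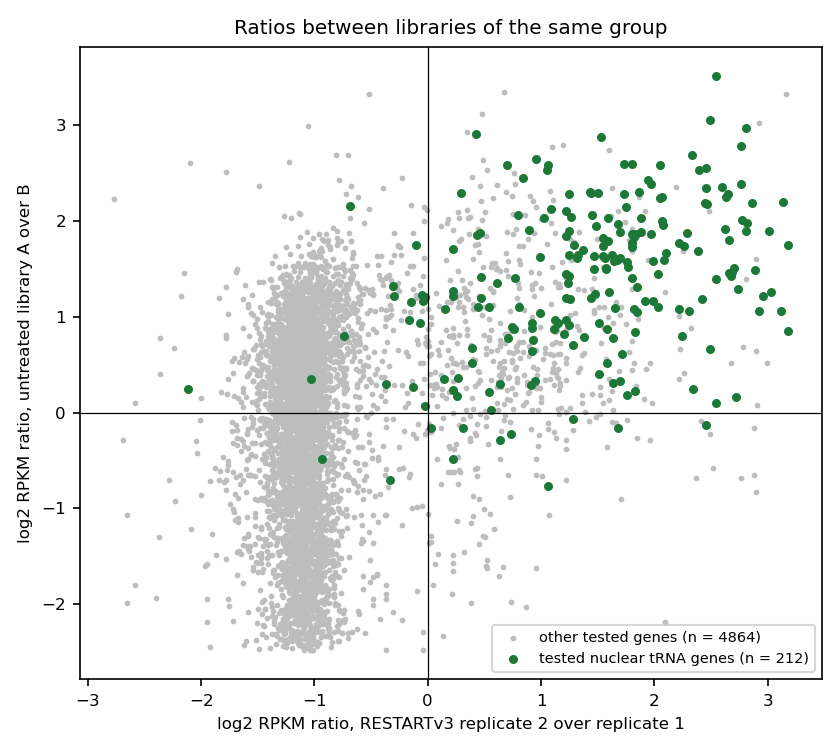
Each point is a tested gene, with the log2 RPKM ratio of RESTARTv3 replicate 2 over replicate 1 on the horizontal axis and of untreated library A over B on the vertical axis, in green for the 212 tRNA genes and in grey for the other tested genes. Most tRNA genes lie right of and above 0 (medians of all listed tRNA genes 1.52 and 1.44), whereas most other genes lie left of 0. Ratios are on the deposited scale, on which RESTARTv3 replicate 2 was low as a whole library (median-of-ratios factor 0.636, against 1.30 in replicate 1).

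By amino acid, the ratio between the RESTARTv3 libraries varied widely. Glycine genes had the highest median log2 ratio of RESTARTv3 replicate 2 over replicate 1 (2.49, 13 genes) and alanine genes the next (2.10, 13 genes). Histidine genes had the lowest (0.22, 7 genes), followed by tyrosine (0.61, 4 genes), cysteine (0.70, 5 genes) and proline (0.70, 14 genes). Between the untreated libraries, glycine was among the lower amino acids, with a median log2 ratio of A over B of 0.86, while aspartate (2.04, 8 genes), the single selenocysteine gene (2.03) and glutamine (2.02, 12 genes) were highest. Genes of an amino acid share near-identical copies and are not independent.

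Among the glycine genes, n-TGgcc7 had 31.3 and 284 RPKM in RESTARTv3 libraries, against 118 and 35.2 RPKM in untreated libraries. The 6 glycine GCC genes had log2 ratios of RESTARTv3 replicate 2 over replicate 1 between 1.28 and 3.18, and the 4 TCC genes between 2.46 and 2.74. The single glycine ACC gene, n-TGacc1, went the other way, with 24.9 and 19.7 RPKM in RESTARTv3 libraries, against 25.2 and 41.2 RPKM in untreated libraries. The most even gene family was histidine, whose highest gene n-THgtg4 had 94.5 and 104 RPKM in RESTARTv3 libraries, against 153 and 120 RPKM in untreated libraries. In n-THgtg4 the RESTARTv3 libraries lay below both untreated libraries, with a log2 change of -0.45 (95% interval -2.30 to 1.40). The same order was seen in 5 of the 7 histidine genes, and in 1 after median-of-ratios scaling. The 7 serine AGA genes also had small ratios, with a median of 0.22 and a range of -1.03 to 1.22.

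**Figure D4:**
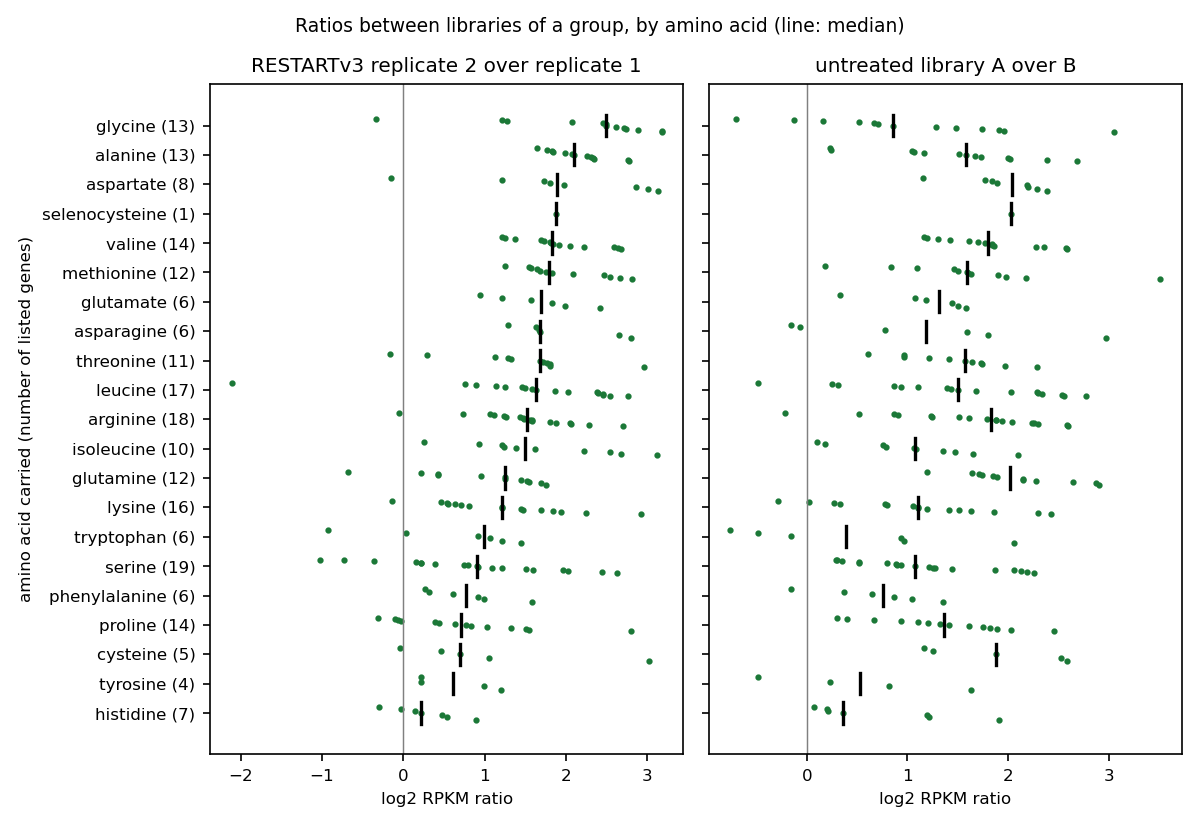
Points are the 218 listed tRNA genes by the amino acid carried, with the log2 RPKM ratio of RESTARTv3 replicate 2 over replicate 1 on the left and of untreated library A over B on the right, and black lines are medians. The order follows the left medians, with glycine (2.49) at the top and histidine (0.22) at the bottom, and the right panel does not keep that order.

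The groups were also compared by the share of the tRNA reads that each amino acid took, which sum to 100% in each library. Leucine genes took the largest mean share, with 16.9% and 16.4% in RESTARTv3 libraries, against 19.2% and 18.9% in untreated libraries. Arginine genes came next by the mean, and above leucine in RESTARTv3 replicate 2, with 16.2% and 17.8% in RESTARTv3 libraries, against 18.0% and 16.1% in untreated libraries. The selenocysteine gene alone took 10.2% and 10.6% in RESTARTv3 libraries, against 11.2% and 9.34% in untreated libraries, so that its share was steady while its RPKM varied. Leucine lay below in both RESTARTv3 libraries, and arginine and selenocysteine overlapped.

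The shares of 4 of the 21 amino acids (19.0%) were above the untreated range in both RESTARTv3 libraries, namely alanine, glutamate, isoleucine and valine. Those of 5 (23.8%) were below it, namely aspartate, cysteine, leucine, methionine and threonine. For single genes the same held for 33 of 218 (15.1%) above and 46 (21.1%) below. With 2 libraries a group, random order alone separates the groups, in either direction, with a probability of 0.333. That is also the smallest p of an exact permutation test, and none was run on these shares. Shares within a library are also tied, since a rise in one lowers others. The amino acids that follow are therefore descriptions, not evidence of a change. Alanine genes took 8.03% and 10.6% in RESTARTv3 libraries, against 5.13% and 6.91% in untreated libraries, and each of the 3 alanine anticodons lay above. The largest contributor was n-TAtgc10, described above. Glutamate genes took 2.75% and 3.31% in RESTARTv3 libraries, against 1.53% and 2.33% in untreated libraries. Their highest gene, n-TEctc9, had 118 and 632 RPKM in RESTARTv3 libraries, against 277 and 122 RPKM in untreated libraries.

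Cysteine genes took 0.392% and 0.178% in RESTARTv3 libraries, against 0.685% and 0.519% in untreated libraries. Only 5 of the 57 annotated cysteine symbols were listed, the lowest proportion of any amino acid with an annotated gene. The highest, n-TCgca54, had 13.5 and 21.8 RPKM in RESTARTv3 libraries, against 103 and 17.1 RPKM in untreated libraries. Aspartate genes took 6.76% and 6.43% in RESTARTv3 libraries, against 9.89% and 7.07% in untreated libraries. Glycine overlapped, with 2.48% and 4.26% in RESTARTv3 libraries, against 1.56% and 2.56% in untreated libraries. Histidine overlapped too, with 2.96% and 0.906% in RESTARTv3 libraries, against 1.62% and 3.06% in untreated libraries, the low libraries of histidine being those with the most tRNA reads.

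**Figure D5:**
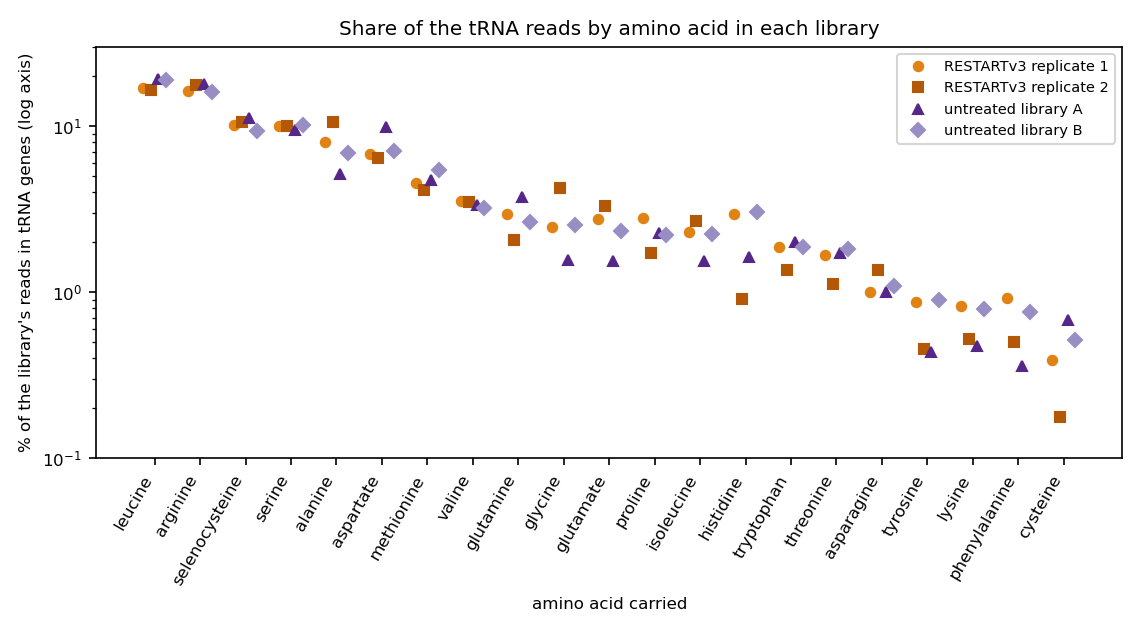
Points give the share of each library's tRNA reads (log axis) taken by the genes of each amino acid, ordered by mean share, in the 2 RESTARTv3 and the 2 untreated libraries. By mean share leucine was highest (16.4% to 19.2% in single libraries) and cysteine lowest (0.178% to 0.685%). Alanine and glutamate lay higher in both RESTARTv3 libraries, an order that was not tested.

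For the remaining amino acids, the highest gene of each overlapped between the groups. Among them, the tryptophan gene n-TWcca5 had 122 and 334 RPKM in RESTARTv3 libraries, against 626 and 150 RPKM in untreated libraries. The valine gene n-TVcac8 had 96.5 and 340 RPKM in RESTARTv3 libraries, against 310 and 86.7 RPKM in untreated libraries. The isoleucine gene n-TIaat3 had 55.3 and 355 RPKM in RESTARTv3 libraries, against 141 and 51.0 RPKM in untreated libraries. RESTARTv3 replicate 2 was the highest library in both n-TVcac8 and n-TIaat3, and untreated library A in n-TWcca5. The highest genes of asparagine, threonine, proline, phenylalanine, tyrosine and lysine, n-TNgtt5, n-TTtgt1, n-TPcgg3, n-TFgaa4, n-TYgta10 and n-TKctt16, had means of 115, 78.7, 155, 51.8, 48.0 and 19.1 RPKM and log2 changes between -0.50 and 0.61.

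The ratios were also set out by where a tRNA gene lay. In the GRCm38.p6 annotation, 36 listed tRNA genes lay inside the span of another gene and 180 outside. The median log2 ratio of RESTARTv3 replicate 2 over replicate 1 was 1.76 inside and 1.47 outside, and that of untreated library A over B was 1.54 inside and 1.43 outside. Many tRNA genes lie in clusters, here taken as tRNA genes at most 10000 bases apart. The median log2 ratio of RESTARTv3 replicate 2 over replicate 1 was 1.58 for 96 genes in clusters of at least 5, 1.32 for 65 genes in clusters of 2 to 4 and 1.64 for 55 genes that stood alone. In the cluster of 15 annotated genes that holds n-TRtct3, the 10 listed genes ranged between -1.03 and 3.14, so that neighbours did not share a ratio. In the cluster that holds n-TRtct1, all 8 annotated genes were listed, with ratios between -0.13 and 2.68.

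Other short RNAs were compared in the same libraries. The Y RNAs (Rny1 and Rny3) and the vault RNA Vaultrc5, also products of RNA polymerase III, had the same order of libraries as the tRNA genes. Rny1 had 2632 and 7436 RPKM in RESTARTv3 libraries, against 13963 and 3980 RPKM in untreated libraries. Vaultrc5 had 48.4 and 162 RPKM in RESTARTv3 libraries, against 242 and 61.1 RPKM in untreated libraries. The polymerase III products Rn7sk (7SK RNA, which holds back the elongation factor P-TEFb), Rpph1 (the RNA of RNase P, which trims tRNA 5′ ends), Rmrp (the RNA of RNase MRP) and Bc1, a short RNA of neurons, did not. Bc1 had 63.1 and 80.1 RPKM in RESTARTv3 libraries, against 1101 and 144 RPKM in untreated libraries. Rpph1 had 5804 and 2798 RPKM in RESTARTv3 libraries, against 66563 and 8347 RPKM in untreated libraries. Its log2 change was -2.55 (SE 0.81, adjusted p = 0.998 in limma), with RESTARTv3 replicate 2 the lowest library and untreated library A the highest.

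The median log2 ratio of RESTARTv3 replicate 2 over replicate 1 was 0.64 for 14 mitochondrial tRNA genes, which another polymerase transcribes, and 2.06 for untreated library A over B. It was 0.57 and 0.49 for 84 C/D box small nucleolar RNAs, 0.28 and 1.22 for 34 H/ACA box small nucleolar RNAs, and -1.03 and -0.41 for 120 microRNA hairpins. The order of libraries seen in 77.5% of listed tRNA genes was seen in 2.56% of all listed genes, in 57.1% of mitochondrial tRNA genes, 40.5% of C/D box RNAs, 14.7% of H/ACA box RNAs, 5.83% of microRNA hairpins and 0.519% of protein-coding genes. These shares are descriptions on the deposited scale with no test, and length and depth differ between the classes.

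Genes that make, process, charge and modify tRNA were described from lists. In each of those named here RESTARTv3 replicate 2 was the lowest library. Of 117 such protein-coding genes in 5 lists, 104 were listed, 33 were tested and none was called in limma (lowest adjusted p = 0.998) or with voom, with none at an unadjusted p under 0.05 in either. Of the 33, 6 (18.2%) had a positive log2 change, against 23.9% of all tested genes, and with voom 54 of all 104 listed genes had a positive one. In the list of RNA polymerase III and its factors, 9 of 20 listed genes were tested, with a median log2 change of -0.30 where that of all tested genes was -0.41. With voom, over all 20 listed genes, the median was 0.17, and that of all genes was -0.0032. Maf1, the repressor of polymerase III, had 7.50 and 3.71 RPKM in RESTARTv3 libraries, against 14.0 and 7.85 RPKM in untreated libraries. Gtf3c1, a subunit of the factor TFIIIC that binds the internal tRNA promoter, had 1.34 and 0.598 RPKM in RESTARTv3 libraries, against 2.32 and 1.51 RPKM in untreated libraries. Both lay lower in the RESTARTv3 libraries, as did 34.9% of all tested genes, with log2 changes of -0.92 (SE 0.85) and -0.74 (SE 0.69).

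In the list of tRNA processing and export, 9 of 23 listed genes were tested, with a median log2 change of -0.63. With voom, over all 23, the median was -0.11. Tsen34, a catalytic subunit of the tRNA splicing endonuclease, had 1.85 and 1.04 RPKM in RESTARTv3 libraries, against 4.76 and 2.02 RPKM in untreated libraries, a log2 change of -0.94 (SE 0.75). Of the cytosolic aminoacyl-tRNA synthetases and their partners, 8 of 23 listed genes were tested, with a median of -0.33, and with voom the median of all 23 was 0.046. Vars, which charges valine tRNA, had 2.99 and 1.23 RPKM in RESTARTv3 libraries, against 4.55 and 2.66 RPKM in untreated libraries, a log2 change of -0.70 (SE 0.77). Aars, which charges alanine tRNA, had 2.40 and 1.08 RPKM in RESTARTv3 libraries, against 2.47 and 2.37 RPKM in untreated libraries. Only 4 of 34 listed tRNA modification genes reached the minimum of 1 RPKM, with a median of -0.55. With voom, over all 34, the median was -0.067. RPKM divides by a gene length, so a long gene with many reads can fall below that minimum. Among 4 ribosome rescue genes, Pelo, which recognises stalled ribosomes, had 3.48 and 1.54 RPKM in RESTARTv3 libraries, against 5.40 and 3.50 RPKM in untreated libraries, a log2 change of -0.77 (SE 0.78). The other polymerase III RNAs had a median of -2.32 over 7 tested, of which 4 had an unadjusted p under 0.05 (all tested genes 1.42%), 1 did with voom, and none was called.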

How the data were processed

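RNA was measured in 4 cochlear libraries, 2 per group. Per the methods, total RNA was depleted of ribosomal RNA, fragmented and made into stranded libraries with molecular identifiers, although the labels name polyA RNA. The authors kept read 2, trimmed it (cutadapt 4.2), removed duplicate reads, extracted molecular identifiers (UMI-tools 1.0.0), mapped it to GRCm39 (STAR 2.7.10b, SAMtools 1.14) and counted reads per gene (HTSeq 1.14). The deposited values are RPKM, and the lengths recovered from them had a median of 23450 bases in protein-coding genes and 73 in tRNA genes. Long genes with many reads can thus lie below 1 RPKM, and 4076 of 15017 listed protein-coding genes were tested. Whole reads were recovered for 100% of genes within 0.001. The stated filter removed genes whose replicates differed over 2-fold, but ratios up to 8-fold remain, and no gene is listed at 0.

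Groups were compared with limma 3.58.1 (R 4.3.3, trend, 2-sided, no block) on log2(RPKM + 0.5), on which low genes show less than their full change. The code of the fits was checked on simulated reads. These lacked the large shifts between same-group libraries seen here, so the check does not bear on how the fits handle them. Whether same-group libraries came from separate mice is not stated in the labels, so the p-values measure the spread between these libraries only. With 2 libraries a group, the fit shares that spread among genes along a trend with their level. Each SE, interval and p in the main fit thus rests on the shared spread rather than on that gene's own libraries. Alternatives changed the pseudocount (0.1, 1), the minimum (none, 3), scaling, trend and replicate limit, used limma voom on recovered reads (means of at least 10 or 2), or left out a library. With voom on 18485 or 21086 genes, 0 genes were called.

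Genes named were all arginine TCT genes, the 10 with the highest mean, the 6 largest changes in each direction among genes whose groups did not overlap (only 3 were higher), the highest gene of each amino acid, and up to 3 of each companion list by unadjusted p. Further genes (n-TGacc1, n-TGgcc8, n-TMcat4, Rny1, Vaultrc5, Bc1 and those of the closing section) were chosen after their values were seen. Genes and lists were chosen with earlier results of these data known. Older symbols were matched by annotation synonyms. 0 columns of other samples were found. Sequences are not printed, and tRNA-R-TCT-1-1 was not matched to a symbol.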

Additional observations from a re-analysis of the deposited data

How the results depend on the processing

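Over 19 alternative fits, 0 tRNA genes were called except where untreated library B was left out after median-of-ratios scaling. There 2 were called, n-TQctg5 (log2 change -2.89, adjusted p = 0.0237 in limma) and n-TSaga8, in a fit that called 2201 of 4851 genes. Such fits leave 1 library in a group, assumed to vary like the others. The number of tRNA genes at an unadjusted p under 0.05 ranged between 0 and 13. Leaving out a library turned the sign of the tRNA median: -1.08 to 0.33 on the deposited scale, and -1.28 to 1.06 after median-of-ratios scaling, where it was 1.06 without RESTARTv3 replicate 1 and 0.87 without untreated library A. It was also positive after quantile normalization (0.11). Scaling by the tRNA genes alone, an alternative chosen after seeing the data, sets this median near 0 by construction. The log2 ratio of summed RPKM ranged between -1.48 and 0.85 for all genes and between -1.45 and 0.77 for arginine TCT genes. Scaled by median-of-ratios, the ratio for all genes was 0.19, and from reads in listed genes 0.45. The log2 change of n-TRtct2 was 0.059 after median-of-ratios scaling, 0.45 after quantile normalization, 0.051 and 0.055 with voom at means of at least 10 and 2 reads and 0.22 with tRNA scaling. Leaving out a library gave -2.11 to 0.45 for n-TRtct1, -1.25 to 0.79 for n-TRtct2, -1.52 to 0.40 for n-TRtct3 and -2.22 to 0.0040 for n-TRtct5. The other ranges were 1.05 to 2.63 for n-TAtgc2, -3.05 to -0.99 for n-TLcag5, -2.91 to -0.87 for n-TQctg5, -2.02 to -0.97 for n-TQttg5, -2.18 to -0.72 for n-TQctg3 and 0.45 to 1.07 for n-TPagg2. With scaling as well, for the 4 arginine TCT genes in the same order, the ranges were -2.09 to 1.01, -1.22 to 1.36, -1.50 to 0.96 and -2.17 to 0.55, and n-TFgaa3 ranged between -0.0087 and 1.18. The causes were not tested. No paired analysis was possible because the untreated columns carry no replicate number. Depth limited the low genes: 44 and 21 tRNA genes had under 10 reads in the RESTARTv3 libraries, and 19 and 39 in the untreated libraries.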

Other observations

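A small number of tRNA genes went against the common order of libraries. RESTARTv3 replicate 2 lay below replicate 1 in 18 of the 212 tested genes, and untreated library A below library B in 11. Besides n-TLcag5, the serine gene n-TScga1 had 54.9 and 33.0 RPKM in RESTARTv3 libraries, against 154 and 88.6 RPKM in untreated libraries. The serine gene n-TSaga8 had 19 and 8 reads in RESTARTv3 libraries, against 16 and 18 reads in untreated libraries. The tryptophan gene n-TWcca3 had 20 and 9 reads in RESTARTv3 libraries, against 11 and 22 reads in untreated libraries, and with n-TGacc1 it was below in both comparisons within groups. The cause was not tested.

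At the other end, the methionine gene n-TMcat4 had the largest ratio of untreated library A over B, a log2 RPKM ratio of 3.52, on 8 and 1 reads. It had 2 and 10 reads in RESTARTv3 libraries. The largest ratios between the RESTARTv3 libraries rested on more reads, with 158 and 1229 reads in n-TGgcc7 and 147 and 1145 reads in n-TGgcc8, against 333 and 142 reads and 220 and 174 reads in untreated libraries.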
